A study of Artemia parthenogenetic lineage with 3 samples.

Results

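The deep gene body peaks of giant genes were examined in *Artemia* cysts 30 min after embryonic diapause termination (EDT). A giant gene is one whose listed model spans at least 200000 bp. A deep peak begins more than 20000 bp past the start of its assigned gene, lies wholly inside that gene, and stays more than 1000 bp away from its 3′ end. These position criteria selected 1946 of the 108316 peaks, and no read count entered the choice. The 1946 peaks were assigned to 192 of the 206 giant genes and lay on 167 contigs. The 206 genes are a small part of the 12002 genes in the peak list and range from 200.041 to 540.399 kb, with a median of 238.373 kb.

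ATAC-seq, in which the Tn5 transposase cuts open chromatin, was performed on wild-type cysts of a parthenogenetic *Artemia* lineage from Ebinur Lake. Diapause had been broken by dehydration and refrigeration, and the cysts were rehydrated and incubated in artificial seawater under light. The only group, ArR_30min, has 3 samples, which the study calls biological replicates of 1 batch of cysts. A cyst is a whole embryo, the number of cysts per sample is not given in the sources used here, and no cell type can be separated. Signal is given in RPM, the reads of a peak scaled to the size of its library, and SD is taken over n = 3.

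In animal genomes much of the length of a very long gene is intron. Introns can hold enhancers, short stretches of DNA that bind transcription factors and act on a promoter from a distance. Such elements are usually open in the cells that use them, and they can serve the gene around them or a neighbour. The deposited table gives gene ends but no exons, so a deep peak cannot be called exonic or intronic here. Genes carry identifiers without names, and functions given below are those in the study's annotation.

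Deep peaks of giant genes were weak and narrow, as listed peaks typically were, with a short tail of strong ones. The median signal was 0.622, 0.615 and 0.643 RPM in replicates 1, 2 and 3, with a mean of 0.627 ± 0.0143 RPM (SD, n = 3). The median over all 108316 peaks was 0.694 ± 0.0241 RPM (SD, n = 3). In reads, a median deep peak held 32, 34 and 52 in the same order, so single weak peaks carried a large counting error. By mean signal, 635 of the deep peaks (32.6%) lay below 0.5 RPM, 892 (45.8%) between 0.5 and 1 RPM, and 313 (16.1%) between 1 and 2 RPM. Another 94 lay between 2 and 5 RPM and 12 at 5 RPM or more. A single one of the 1946 members reached 10 RPM, against 404 of the 108316 peaks in the whole list.

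The median width was 302.5 bp (quartiles 229 and 419.75 bp), against 317 bp over all peaks, and the widest deep peak spanned 1942 bp. Peaks of exactly 200 bp, the smallest width among them, numbered 262 (13.5%, against 12.5% of all peaks). A merged peak can join several summits, the points of highest signal in single peak calls. This held for 788 deep peaks (40.5%, against 45.1% of all peaks). Signal was higher in peaks with more summits. The 1158 peaks of 1 summit had a median of 0.485 ± 0.0211 RPM, the 494 of 2 to 3 summits 0.805 ± 0.0394 RPM, and the 181 of 4 to 5 summits 1.384 ± 0.115 RPM (SD, n = 3 in each case). The 113 peaks of 6 or more summits reached 2.14 ± 0.0889 RPM (SD, n = 3), and the typical width was 716 bp. Per kb of peak width, these 4 medians were 1.88 ± 0.103, 2.08 ± 0.0562, 2.54 ± 0.202 and 2.95 ± 0.0741 RPM per kb (SD, n = 3 in each case). Summits may have been called in these libraries or at other time points of the study, so this is a description.

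Most deep peaks exceeded the read density outside peaks, to about the same extent as the list as a whole. Peak calling had already selected the listed peaks for an excess of reads, in these or other samples. High shares were therefore largely set in advance. A peak was called above background when a one-sided Poisson test gave a Benjamini-Hochberg adjusted p under 0.05 in all 3 replicates. Of all listed peaks, 90.2% were called. Of the deep peaks in giant genes, 1719 were called (88.3%, exact 95% interval 86.8 to 89.7), 180 passed in 2 replicates only, 39 in 1 and 8 in none. The share called lay close to that background, and it read 66.0% against 71.1% of all peaks when the 150 bp of a read were added to each peak width. It was 43.6% against 51.6% with a background density set 2 times higher. With counts and background halved, to allow for the probable counting of both mates of a pair, it was 79.0% against 82.1%. In replicate 1 alone, 1781 deep peaks (91.5%) passed against 93.7% of all peaks, 1863 (95.7%) against 95.9% in replicate 2, and 1912 (98.3%) against 98.3% in replicate 3. The fewest passed in replicate 1, the shallowest library. The study's own peak calling found far fewer peaks in replicates 1 and 2 than in replicate 3. In each replicate it found fewer than are listed here, so passing this test is not a peak call in that library. Intervals on peaks or reads cover counting error only.

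The nearest class to set beside them is the 21297 deep peaks of the 5672 ordinary genes, which are shorter than 200000 bp. Median signal there was 0.660, 0.633 and 0.679 RPM in replicates 1, 2 and 3 (mean 0.657 ± 0.0233 RPM, SD, n = 3). The difference, giant minus ordinary, was -0.08, -0.04 and -0.07 on the log2(RPM + 0.0691) scale, with a mean of -0.06 ± 0.02 (SD, n = 3). Giant genes were the lower class in each replicate, by an amount larger than the spread between replicates but small. That spread comes from the same peaks measured in each library and does not cover differences among peaks or genes. In reads, the medians were 32, 34 and 52 in giant genes and 34, 35 and 55 in ordinary genes. A permutation test of the 3 signs (exact, two-sided) gave p = 0.25, the smallest that 3 samples allow. Widths were alike, with a median of 304 bp in ordinary genes, and per kb of width the difference stayed at -0.06 ± 0.02. The strong end of the distribution was thinner in giant genes, where 6.89%, 4.47% and 5.14% of deep peaks reached 2 RPM in replicates 1, 2 and 3. In ordinary genes the shares were 8.70%, 6.76% and 7.40%. Their strongest deep peak had 94.6 RPM, against 13.9 RPM in giant genes, but the highest of 21297 peaks tends to exceed the highest of 1946. Peaks of 6 or more summits made up 5.81% of deep peaks in giant and 8.12% in ordinary genes.

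Deep peaks of giant genes lie farther from the start, and the contrast with ordinary genes was not the same at every distance. Between 20 and 50 kb it was -0.06 ± 0.02 on the log2 scale, between 50 and 100 kb -0.01 ± 0.02, between 100 and 150 kb -0.0017 ± 0.0312, and between 150 and 200 kb -0.05 ± 0.03 (SD, n = 3). Giant genes were lower in all 3 replicates in the first and last of these ranges. Between 50 and 100 kb replicates 1 and 3 had equal medians in both classes, and between 100 and 150 kb giant genes were the higher class in replicates 1 and 3. The middle ranges thus differed by less than the spread between replicates, and the contrast did not change steadily with distance. For genes with 1 identifier it was -0.10 ± 0.02, and for a limit of 300000 bp on gene length -0.16 ± 0.04 (SD, n = 3). These distance ranges were set after the data had been seen.

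Signal was only slightly lower far from the start of giant genes. Median RPM was 0.647 ± 0.0179 at 20 to 50 kb (388 peaks), 0.641 ± 0.0259 at 50 to 100 kb (633 peaks) and 0.616 ± 0.0197 at 100 to 150 kb (498 peaks). Farther in, it was 0.600 ± 0.0171 at 150 to 200 kb (263 peaks) and 0.581 ± 0.0163 beyond 200 kb (164 peaks; SD, n = 3 in each case). Neighbouring distance classes differed by less than 2 times their SD, and each replicate was lower beyond 200 kb than at 20 to 50 kb. Peaks at 20 to 50 kb came from 154 genes and those beyond 200 kb from 46, so distance and gene cannot be told apart. Across the 1946 peaks, Spearman's coefficient between distance and RPM was -0.0545, -0.0317 and -0.0639 in replicates 1, 2 and 3, which is a weak relation among peaks that share genes and libraries.

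**Figure D1:**
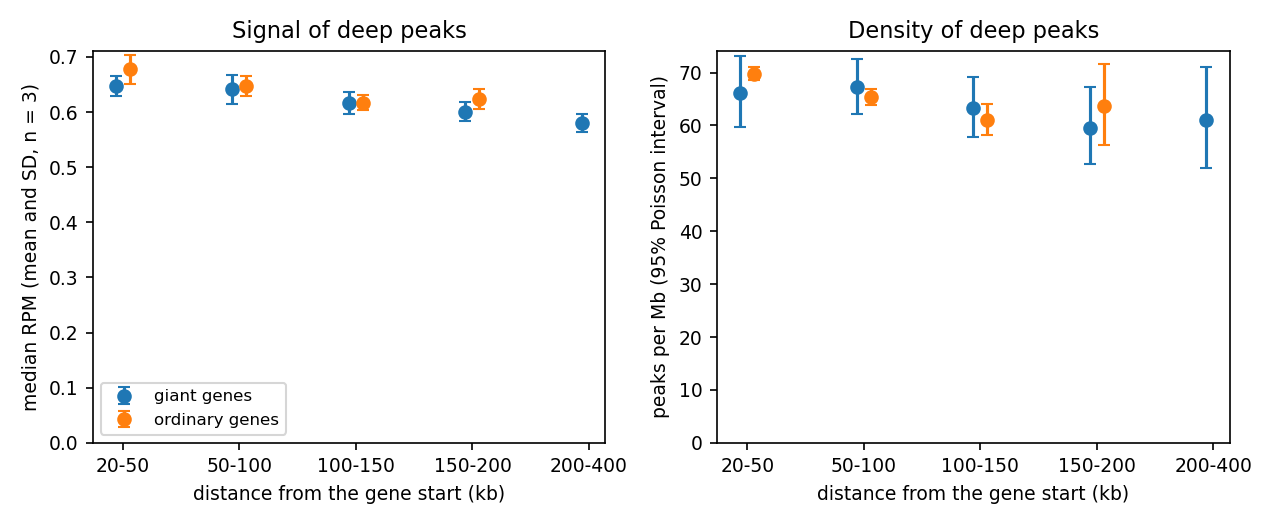
Median signal in RPM (left, points and bars are mean and SD over 3 replicates) and density in peaks per Mb (right, bars are 95% Poisson intervals of the count) of deep peaks against distance from the gene start in kb. Medians in giant genes lie between 0.581 and 0.647 RPM and densities between 59.6 and 67.2 peaks per Mb, with no distance class standing far from the rest.

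Where a peak over the start of a giant gene was listed, its signal typically exceeded that of deep peaks. Only 54 of the 206 giant genes had such a peak, with a median of 1.96, 1.34 and 1.377 RPM in replicates 1, 2 and 3. The deep peaks set against them came from 192 genes. Deep minus start was -1.55, -1.05 and -1.02 on the log2 scale, with a mean of -1.21 ± 0.30 (SD, n = 3; exact sign-flip permutation p = 0.25, the smallest possible). Replicate 1 set this spread, and without it the mean was -1.03. Start peaks were wider, with a median of 589 bp, and per kb of width the difference was -0.46 ± 0.27 (SD, n = 3). Within the 51 genes that held both kinds, the median difference was -1.20 ± 0.37 (SD, n = 3).

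A strong deep peak was nevertheless common. In 25 of these 51 genes the strongest deep peak exceeded the start peak in mean RPM, whereas the median deep peak did so in 3 genes. The strongest of many peaks tends to be high, so the former count grows with the number of deep peaks. Across the 51 genes, Spearman's coefficient between the start peak and the median deep peak was 0.417, as a description of genes measured in the same libraries.

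Against the 223 peaks located 3 to 20 kb past the start of giant genes, deep peaks differed less. Early peaks had a median of 0.717, 0.650 and 0.716 RPM in replicates 1, 2 and 3, and deep minus early was -0.18, -0.07 and -0.14 on the log2 scale (mean -0.13 ± 0.06, SD, n = 3; exact sign-flip permutation p = 0.25, the smallest possible). Within the 120 genes that held both kinds the difference was -0.06 ± 0.05, and per kb of width -0.07 ± 0.07 (SD, n = 3). Among peaks at or above the median signal it turned to 0.02 ± 0.02 (SD, n = 3), so the sign changed with this filter.

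**Figure D2:**
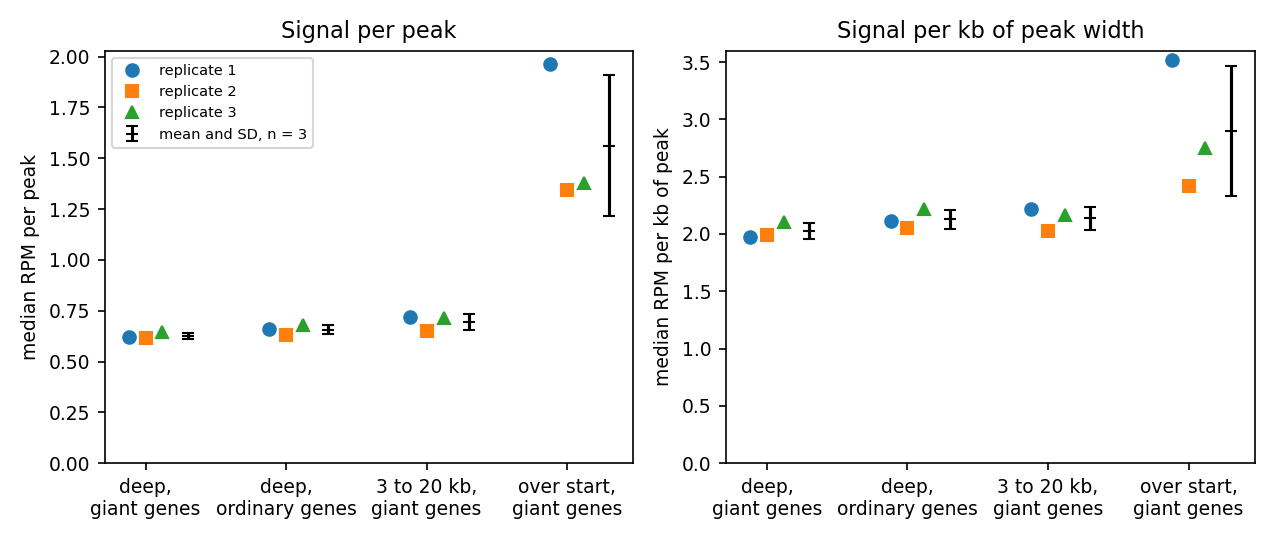
Median signal per peak in RPM (left) and per kb of peak width in RPM per kb (right) for 4 peak classes, with 1 symbol per replicate and black bars for mean and SD (n = 3). Deep peaks of giant genes sit at 0.615 to 0.643 RPM, close to the other gene body classes and under the start peaks at 1.34 to 1.96 RPM, where replicate 1 is highest.

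The number of deep peaks per gene followed the stretch of gene that could receive them. Each peak was assigned to the gene with the nearest start, so part of a giant gene's body falls to neighbours. All 1946 deep peaks lay nearer to their own gene's start than to any other listed start. Of the 3437 peaks wholly inside giant gene bodies, 1225 (35.6%) were assigned to another gene, and the 1946 members are 61.8% of the 3150 peaks that lay deep in a giant gene whatever their assignment. The assigned stretch is the deep body nearer to the own start than to any other listed start, and it totalled 30.3 Mb of 49.2 Mb (61.5%). Spearman's coefficient between its length and the number of deep peaks was 0.632 over the 206 genes, against 0.0680 for gene length itself. The stretch follows the same rule that assigns peaks, and a gene without one can hold no deep peak. Part of this relation is therefore set by the assignment.

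Per Mb of the whole deep body there were 39.5 assigned peaks in giant genes (95% Poisson interval 37.8 to 41.3) and 52.1 in ordinary genes (51.4 to 52.8). Per Mb of assigned stretch the values were 64.3 (61.5 to 67.3) and 67.4 (66.5 to 68.3), whose intervals overlap. For peaks above background alone they were 56.8 (54.2 to 59.6) and 60.9 (60.0 to 61.7), whose intervals do not. Counting all peaks inside whatever their gene gave 64.0 (61.8 to 66.3) and 67.4 (66.6 to 68.2) per Mb, whose intervals do not overlap. The density per assigned stretch ranged from 59.6 per Mb at 150 to 200 kb to 67.2 per Mb at 50 to 100 kb. In each of these counts the densities of giant and ordinary genes lay closer together than per Mb of the whole deep body.

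Of the 14 giant genes without a deep peak, 9 had no assigned stretch at all. Another gene, evm.TU.ctg731.20, had only 8.81 kb of such a stretch and 19 body peaks that went to other genes. In evm.TU.ctg452.18_evm.TU.ctg452.15 the stretch was 48.172 kb, and 12 of 13 body peaks went to other genes. Long assigned stretches without a deep peak also occurred. The gene evm.TU.ctg203.18_evm.TU.ctg203.17 (1060746 to 1298881 of ctg203, minus strand) had 152.402 kb of assigned stretch and a single listed peak in its body. In evm.TU.ctg267.23 and evm.TU.ctg755.9 the assigned stretch was 147.002 and 117.223 kb, and their 4 and 2 body peaks belonged to other genes.

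**Figure D3:**
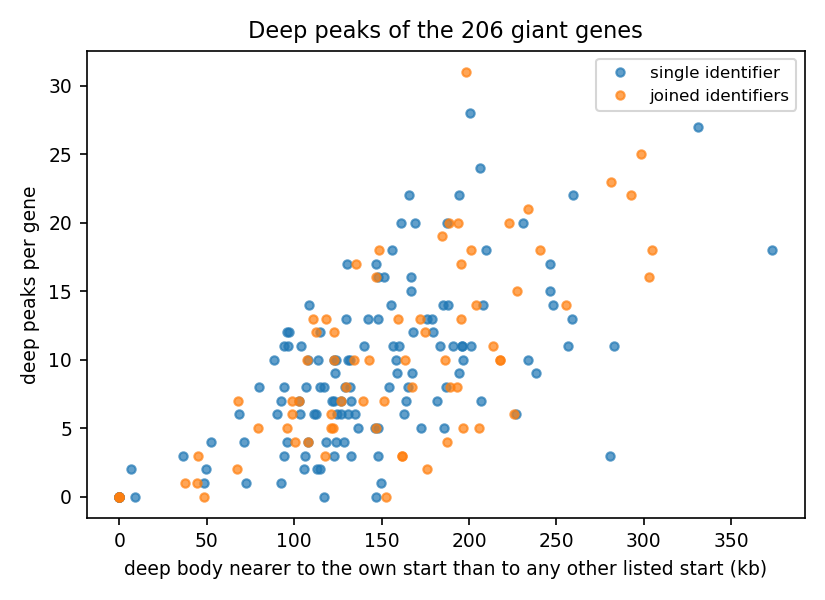
Number of deep peaks of each of the 206 giant genes (y) against the length of deep body in kb that lies nearer to the own start than to any other listed start (x), coloured by whether the model has 1 identifier or joined identifiers. Counts reach 31 and rise with the assigned stretch, and 9 genes without such a stretch have no deep peak.

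Joined identifiers name 73 of the 206 giant models. The sources used here do not say why identifiers were joined, and a joined model may be long because neighbouring models were merged. Such models held 731 of the deep peaks (37.6%). Their median was 0.653 ± 0.0181 RPM, against 0.611 ± 0.0176 RPM in the 124 genes with 1 identifier (SD, n = 3 in each case). Another listed gene overlapped 38 of the deep peaks. Genes on the plus strand numbered 108 of 206 and held 1111 of the 1946 deep peaks.

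A gene with deep peaks held a median of 10 (quartiles 6 and 13), and 6 genes held 1. The 18 genes with at least 20 held 407 (20.9%). The median gap between neighbouring deep peaks of a gene was 7.46 kb (quartiles 2.67 and 16.5 kb), the longest 195 kb, and 382 of 1754 gaps (21.8%) were under 2 kb. Peaks close to each other were more alike in strength. Spearman's coefficient between neighbours was 0.345 for the 382 pairs under 2 kb apart, 0.255 for 660 pairs at 2 to 10 kb and 0.0691 for 712 pairs beyond 10 kb, as a description of peaks that share libraries and sequence surroundings.

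The most deep peaks, 31, belonged to evm.TU.ctg166.6_evm.TU.ctg166.5_evm.TU.ctg166.7 (276538 to 496076 of ctg166, plus strand), and 30 of them were above background. Their median was 1.13, 0.879 and 1.02 RPM in replicates 1, 2 and 3, higher than that of deep peaks as a whole in each replicate. The strongest, at 437301 to 438036, lay 160.763 kb from the start with 3.41, 2.198 and 2.95 RPM.

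The 28 deep peaks of evm.TU.ctg35.9 (348252 to 569742 of ctg35, minus strand) had medians of 0.547, 0.571 and 0.619 RPM. One of them, at 427385 to 429326, was the widest of all 1946, with 1.96, 2.72 and 2.75 RPM over 1942 bp. The gene evm.TU.ctg77.54 (3981014 to 4340622 of ctg77, plus strand) had 27 deep peaks at medians of 0.641, 0.615 and 0.667 RPM. Its peaks ranged from 0.364 to 1.40 RPM in mean, with no strong one among them, and reached 342.945 kb from the start.

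The longest model, evm.TU.ctg5.20_evm.TU.ctg5.22 (1499840 to 2040238 of ctg5, plus strand), spans 540.399 kb under joined identifiers. It had 25 deep peaks with medians of 0.566, 0.633 and 0.655 RPM, none beyond 318.489 kb from the start. A further 9 peaks in its body went to other genes. Its strongest deep peak had 2.04, 1.92 and 1.78 RPM.

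The other models at the head of the length order were evm.TU.ctg63.10_evm.TU.ctg63.11 (462.902 kb) and evm.TU.ctg66.43 (452.189 kb). The former had 17 deep peaks with medians of 0.415, 0.475 and 0.473 RPM, and 1 strong peak, at 1183312 to 1183725 of ctg63, with 4.83, 5.61 and 4.88 RPM. The latter had 6, of which the peak at 2850077 to 2850904 of ctg66 had 3.77, 4.36 and 4.89 RPM and the other 5 were at or below a mean of 0.644 RPM. In both genes a lone strong peak stood among weak ones.

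The gene evm.TU.ctg197.19 (1012882 to 1240272 of ctg197, plus strand) combined a strong start with 24 deep peaks. Its start peak had 7.15, 4.83 and 5.71 RPM, and its deep peaks had medians of 1.00, 0.888 and 0.989 RPM. The strongest deep peak, 56.962 kb in, had 4.28, 2.60 and 3.19 RPM, highest in replicate 1 as was the start peak.

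Gene medians varied within narrow limits. Among the 158 genes with at least 5 deep peaks, the median of the peaks' mean RPM ran from 0.314 in evm.TU.ctg417.4 to 1.64 in evm.TU.ctg740.1 (quartiles 0.517 and 0.703 RPM), and 5 genes reached 1 RPM. Differences between genes accounted for 22.7% of the variance of log2 mean RPM over the 1946 peaks, and the rest lay among peaks of 1 gene. The share that a random grouping of peaks would give was not estimated. The order of the gene medians was similar in the replicates, with Spearman's coefficients of 0.718, 0.791 and 0.712 between replicates 1 and 2, 1 and 3, and 2 and 3. The strongest deep peak of a gene exceeded its median peak by 2.72 times in a typical gene and by 17.2 times in evm.TU.ctg81.45.

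Among genes with at least 5 deep peaks, the highest median belonged to evm.TU.ctg740.1 (174188 to 378746 of ctg740, plus strand), which the study annotates with ion transmembrane transport. Such proteins move ions across membranes. Its 22 deep peaks had medians of 1.73, 1.53 and 1.69 RPM in replicates 1, 2 and 3. All 22 were above background, and 18 had a mean of at least 1 RPM, as did 21.5% of deep peaks overall. They lay between 22.379 and 123.928 kb from the start, and none assigned to this gene lay farther in.

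The strongest of them, at 231487 to 232404 and 57.299 kb in, had 12.1, 8.60 and 9.26 RPM. A second, 1.07 kb past it, had 5.28, 3.73 and 4.52 RPM. The start peak of this gene, with 9.07, 5.63 and 6.43 RPM, was also the strongest among the 54 giant genes that have one. All 3 peaks were highest in replicate 1, and even the lowest replicate of the strongest deep peak was far above the median deep peak.

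The next genes with at least 5 deep peaks, ordered by the median of the peaks' mean RPM, are given here by the mean of the 3 replicate medians. They were evm.TU.ctg848.5_evm.TU.ctg848.4 with 16 deep peaks at 1.15 ± 0.00276 RPM and evm.TU.ctg1.46_evm.TU.ctg1.48 with 7 at 1.11 ± 0.185 RPM. The others were evm.TU.ctg667.6 with 20 at 1.09 ± 0.241 RPM and evm.TU.ctg742.43_evm.TU.ctg742.42 with 13 at 1.01 ± 0.0280 RPM (SD, n = 3 in each case). By the mean of replicate medians, evm.TU.ctg125.1_evm.TU.ctg125.3 with 20 deep peaks at 1.03 RPM and evm.TU.ctg166.6_evm.TU.ctg166.5_evm.TU.ctg166.7 at 1.01 RPM also lay at that level. Genes with fewer than 5 deep peaks reached higher, as evm.TU.ctg108.9 did with a single one of 1.74, 1.97 and 1.77 RPM. The order of these genes is not resolved by these SDs, and 3 of the first 4 are joined models.

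**Figure D4:**
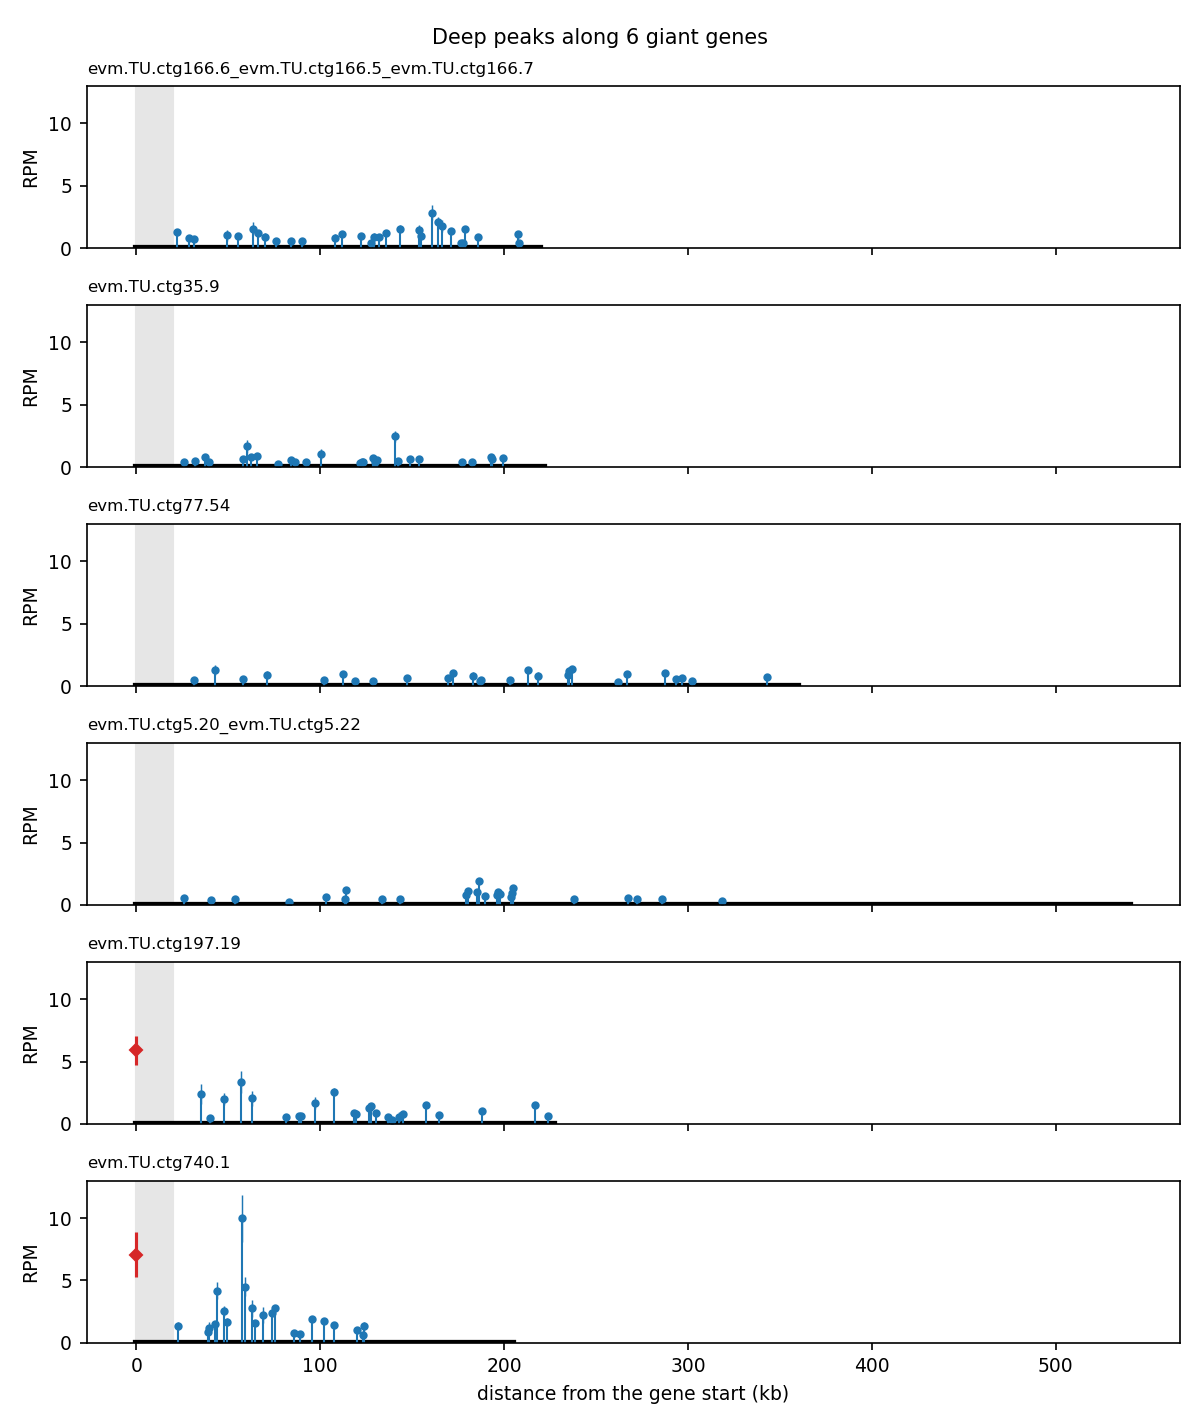
Deep peaks along the 5 giant genes with the most deep peaks and along evm.TU.ctg740.1, with distance from the gene start in kb (x) and RPM (y, mean and SD over 3 replicates). Blue points are deep peaks, red diamonds peaks over the start, the black bar the gene and grey the first 20 kb. The peaks of evm.TU.ctg77.54 stay at or under 1.40 RPM while evm.TU.ctg740.1 reaches 9.99 RPM at 57.299 kb.

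The 10 strongest deep peaks came from 9 genes. The first was at 4060693 to 4061878 of ctg81, 73.2 kb inside evm.TU.ctg81.45 (plus strand), with 14.3, 13.2 and 14.2 RPM in replicates 1, 2 and 3. Another of the 10, at 4056768 to 4057192, lay 3.5 kb away in the same gene with 7.30, 8.84 and 8.37 RPM. This second peak was the densest of the 10, with 19.2 RPM per kb of width. The other 16 deep peaks of evm.TU.ctg81.45 had mean signals of at most 2.201 RPM, and the median of all 18 was 0.863 ± 0.178 RPM (SD, n = 3).

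The peak at 984324 to 984947 of ctg146, 91.510 kb inside evm.TU.ctg146.20, had 6.34, 8.25 and 10.04 RPM. It was lowest in replicate 1, unlike the peak of evm.TU.ctg740.1. At 451804 to 452946 of ctg786, 26.635 kb inside evm.TU.ctg786.10, the values were 8.88, 5.22 and 6.05 RPM, highest in replicate 1. The peak at 1576826 to 1577277 of ctg490, 45.875 kb inside evm.TU.ctg490.15, had 5.58, 6.35 and 6.39 RPM.

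The peak of evm.TU.ctg1.46_evm.TU.ctg1.48, at 3426140 to 3427249 of ctg1, lay 154.172 kb in with 4.39, 5.91 and 7.02 RPM. That of evm.TU.ctg742.43_evm.TU.ctg742.42, at 2432510 to 2433538 of ctg742, had 7.05, 3.96 and 5.07 RPM. The values overlap across replicates, so these 2 cannot be ordered. The peak at 1442588 to 1443388 of ctg122, in evm.TU.ctg122.21_evm.TU.ctg122.22, had 6.58, 4.34 and 4.78 RPM. The peak of evm.TU.ctg371.6, at 543807 to 545206 of ctg371, was the steadiest, with 5.07, 5.17 and 5.17 RPM. Of the 10, 5 were highest in replicate 1.

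**Figure D5:**
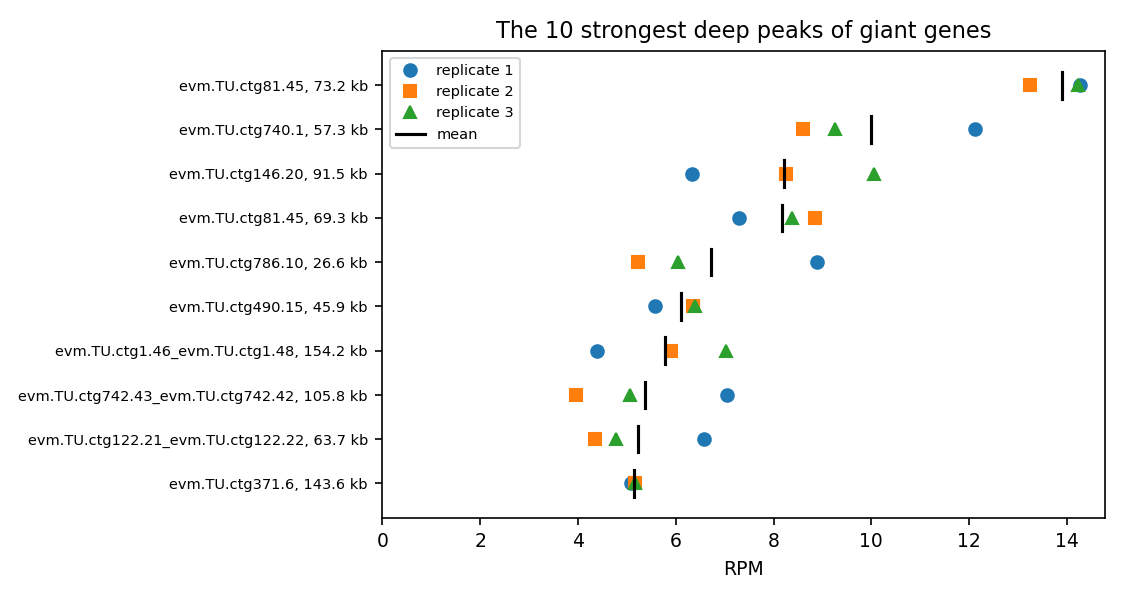
Signal in RPM of the 10 strongest deep peaks of giant genes in each replicate, named by gene and distance from the start, with a black line for the mean. The peak 73.2 kb inside evm.TU.ctg81.45 lies at 13.2 to 14.3 RPM, above all values of the other 9, while replicates of most others overlap their neighbours in the order.

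Strong deep peaks joined many summits. The 3 peaks with the most were in evm.TU.ctg534.3 (17 summits, 265485 to 266725 of ctg534), in evm.TU.ctg150.14 (15, 1015018 to 1016227 of ctg150) and in evm.TU.ctg371.6 (15, named above). The first had 2.53, 2.67 and 2.64 RPM and the second 3.64, 4.17 and 4.25 RPM. Reads were concentrated in such peaks, since 30.6% ± 1.67 (SD, n = 3) of the reads in deep peaks fell into the strongest 195.

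The peaks farthest from a start all lay in evm.TU.ctg750.1 (394.363 kb, minus strand). The peak 387.031 kb in, at 7817 to 8018 of ctg750, had 0.170, 0.316 and 0.437 RPM and passed the background test in 2 replicates. Those at 364.197 and 346.737 kb had 0.868, 0.809 and 0.607 RPM, and 0.509, 0.545 and 0.497 RPM, and were above background in all 3. At the weak end, the peak at 171836 to 172093 of ctg47, in evm.TU.ctg47.3, held 0, 0 and 4 reads. The deposited RPM adds 1 read to each count, so its 0.0189, 0.0176 and 0.0607 RPM are mostly that added read. The next weakest, in evm.TU.ctg210.14_evm.TU.ctg210.16 and evm.TU.ctg137.22, had 3, 6 and 13 reads and 5, 10 and 11 reads. None of these 3 was above background in any replicate.

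The study's annotation of genes it selected partly on these samples lists 15 giant genes, all but evm.TU.ctg87.9 with functional terms, so the set is neither complete nor independent. Beside evm.TU.ctg740.1, 3 genes carried ion transport terms. The gene evm.TU.ctg215.39 (metal ion and vacuolar transport) had 10 deep peaks with medians of 0.622, 0.580 and 0.600 RPM. The gene evm.TU.ctg27.20 (regulation of calcium channels) had 10 with medians of 0.405, 0.501 and 0.522 RPM. Only 2 fell to evm.TU.ctg131.10 (calcium ion transport), with medians of 0.377, 0.650 and 0.285 RPM. The transport genes thus spread from 0.438 ± 0.190 RPM in evm.TU.ctg131.10 to 1.65 ± 0.104 RPM in evm.TU.ctg740.1 (SD, n = 3).

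Terms of proteolysis, the cutting of proteins, were given to evm.TU.ctg104.14 (serine-type peptidase of the membrane) and evm.TU.ctg493.19 (metalloendopeptidase of the extracellular matrix). Their 17 and 13 deep peaks had medians of 0.561 ± 0.0607 and 0.518 ± 0.0385 RPM (SD, n = 3), and 16 and 12 were above background. The start peak of evm.TU.ctg104.14, with 0.566, 0.633 and 0.655 RPM, was about as strong as the median deep peak of giant genes. Its strongest deep peak had 1.377, 1.49 and 2.12 RPM, above the start peak in each replicate. The gene evm.TU.ctg490.15, with terms of protein processing and phenylalanine-tRNA ligase activity, held 1 of the 10 strongest peaks, while its 11 deep peaks had a median of 0.526 ± 0.00357 RPM (SD, n = 3).

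The gene evm.TU.ctg116.17 has terms of motor activity in the myosin complex, the molecular motor that pulls on actin. All of its 16 deep peaks were above background, and the strongest had 2.00, 1.92 and 1.84 RPM. The gene evm.TU.ctg1040.3 has terms of a transcription factor that binds specific DNA sequences, and its 3 deep peaks had medians of 0.792, 0.615 and 0.594 RPM. The gene evm.TU.ctg822.1, with terms of membrane raft assembly, had 11 deep peaks at a median of 0.517 ± 0.0866 RPM (SD, n = 3). The strongest of these lay 175.009 kb in, with 2.94, 3.18 and 3.01 RPM. The gene evm.TU.ctg832.3, with terms of copper ion binding and sulfuric ester hydrolase activity, had 13 at 0.541 ± 0.0185 RPM (SD, n = 3), and its strongest deep peak exceeded its start peak with 3.24, 3.81 and 3.603 against 2.19, 1.85 and 2.09 RPM.

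Of genes with the general term protein binding, evm.TU.ctg386.10 had 16 deep peaks at a median of 0.638 ± 0.0487 RPM, evm.TU.ctg25.27 had 12 at 0.726 ± 0.0259 RPM and evm.TU.ctg179.25 had 6 at 0.787 ± 0.126 RPM (SD, n = 3). The gene evm.TU.ctg87.9 was listed with no term and had 10 at 0.657 ± 0.0508 RPM (SD, n = 3). Among the genes the study's text names, evm.TU.ctg441.12, the receptor of the neuropeptide RYamide, is a giant gene of 247.228 kb. Its 8 deep peaks had medians of 0.405, 0.483 and 0.412 RPM, below those of deep peaks as a whole in each replicate, and the strongest had 0.434, 0.650 and 0.801 RPM. The gene evm.TU.ctg195.9 was a candidate G-protein-coupled receptor that the study's structural analysis did not bear out. It had 5 deep peaks with medians of 0.396, 0.527 and 0.631 RPM.

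Replicates differed at single peaks more than in the medians. The median coefficient of variation of RPM over the 3 replicates was 21.9% per deep peak (quartiles 14.0 and 30.7%), and 312 deep peaks (16.0%) differed by more than 2-fold between their highest and lowest replicate. The biological coefficient of variation from edgeR's common dispersion was 0.201 for deep peaks of giant genes, 0.193 for those of ordinary genes and 0.188 for all peaks, and without replicate 1 it was 0.159, 0.165 and 0.154. Counting error enters the first measure and is modelled in the second as if reads were independent. Where both mates of a pair were counted, as is probable here, part of that error stays in the second. With counts halved the second was 0.134 for deep peaks of giant genes, 0.125 for those of ordinary genes and 0.128 for all peaks. Spearman's coefficients across the deep peaks were 0.751, 0.783 and 0.779 for replicates 1 and 2, 1 and 3, and 2 and 3.

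Replicate 1 stood apart from the others at strong peaks. Over all deep peaks of giant genes, 977 of 1946 (50.2%) exceeded in replicate 1 the geometric mean of the other replicates. Among the 419 with a mean of at least 1 RPM the share was 67.3%, with a median log2 ratio of 0.22. The same share was 62.8% for ordinary genes and 63.2% for all peaks of that strength. The part of this library in the SDs of single strong peaks was not tested.

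Members near the limits of the selection had ordinary values. The peak just past the distance limit, at 20013 bp in evm.TU.ctg48.6, had 0.283, 0.932 and 0.691 RPM, and the one just short of it, at 19963 bp in evm.TU.ctg77.58_evm.TU.ctg77.57, had 0.811, 1.23 and 0.728 RPM. The shortest gene inside the length limit, evm.TU.ctg832.3 at 200041 bp, had 13 peaks from 0.295 to 3.55 RPM. The longest gene outside it, evm.TU.ctg231.11 at 199998 bp, had 7 from 0.158 to 3.16 RPM. The deep peak nearest to a 3′ end lay 1447 bp from it, in evm.TU.ctg1280.1_evm.TU.ctg1280.2, with 1.51, 0.932 and 1.48 RPM. The nearest peak left out for its closeness to a 3′ end was 178 bp away, in evm.TU.ctg671.1, with 0.886, 0.615 and 0.861 RPM.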

How the data were processed

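Reads were trimmed with skewer, aligned with BWA to the ASM3288406v1 assembly of *Artemia franciscana*, a related species, filtered and deduplicated, and peaks were called with MACS2 and assigned to the nearest gene start with ChIPseeker. Reads may be lost where the species diverge. The authors deposited merged peaks with raw read counts per library and with RPM values, which equal the count plus 1 over a library total. Recovered totals were 53022286, 56882842 and 82440231 reads, with 12.2%, 11.1% and 11.8% in peaks, so replicate 3 has the least counting error. The study describes peaks merged over all its samples, other time points included, so a listed peak need not have been called in these libraries. The recovered totals exceed the mapped reads that the study reports for each replicate, so both mates of a pair were probably counted. Read-based p-values are then too small. Per-sample columns that went unused: 0.

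Background density was taken as reads outside peaks over the 1583 Mb spanned by peaks and genes on their contigs. Classes were compared by medians of log2(RPM + 0.0691), the pseudocount being 0.1 of the median. Common dispersion was estimated by edgeR 4.0.16 in an intercept model after TMM scaling. The Poisson calls and the dispersion were tested on simulated data. The members and lists were chosen with earlier results of these data known. Peaks and genes were named for strength, number, length, distance, summits, weakness, closeness to a limit of the selection, or annotation. No genome sequence was used here.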

Additional observations from a re-analysis of the deposited data

How the results depend on the processing

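Deep peaks of giant genes had the lower mean of replicate differences against start peaks and against deep peaks of ordinary genes in every alternative run. At 100 to 150 kb the latter was -0.0017, with giant genes higher in replicates 1 and 3. These differences were, against ordinary genes and start peaks, -0.07 to -0.05 and -1.30 to -1.03 on the log2 scale when 1 replicate was left out. Against early peaks of giant genes the difference was -0.16 to -0.11 with 1 replicate left out, and 0.024 among peaks at or above the median signal. It was -0.37 and -0.06 with gene length limits of 300000 and 150000 bp and -0.07 with a pseudocount equal to the median, where the differences to start peaks and ordinary genes were -0.76 and -0.03. Start peaks differed by -0.80 at 300000 bp and by -0.61 among peaks at or above the median signal. Against 44062 peaks outside genes and beyond 20 kb from a start, the difference was -0.08 ± 0.01 (SD, n = 3). Of these intergenic peaks, 88.0% were called above background, against 90.2% of all peaks. No p could fall below 0.25. Median signal was 1.05 RPM among peaks at or above the median signal, 0.602 RPM as a median of gene medians, 0.611 RPM for single identifiers, 2.02 RPM per kb of width, and 0.619 to 0.633 RPM with 1 replicate left out. The share above background was 43.6% against 51.6% of all peaks with the background 2 times higher. It was 79.0% against 82.1% with counts and background halved, and 66.0% against 71.1% with peaks extended by a read. With 1 replicate left out it was 89.1% to 94.5%, but fewer replicates then had to pass, so it could not fall. No share over all peaks is given for this setting. Density was 34.9 per Mb for peaks above background, 64.0 for peaks of any gene, 29.5 for genes of at least 300000 bp and 64.3 per Mb of assigned stretch. The biological coefficient of variation was 0.134 with counts halved, 0.163 with at least 50 reads in each replicate, and 0.159 to 0.227 with 1 replicate left out. Gene length limits of 150000 and 300000 bp gave 6013 and 434 peaks. The share higher in replicate 1 was 72.4% where every replicate held 50 reads or more, a limit that is strictest for the shallowest library, and 67.3% at a mean of at least 1 RPM. Spearman's coefficient with distance was -0.0726 per kb of width, -0.0281 with distance as a share of gene length, and -0.0592 to -0.0431 with 1 replicate left out. Causes were not tested. The distance ranges, single identifiers, within-gene and intergenic comparisons, assigned stretches, extended peaks and the limit of 1 RPM were chosen after seeing the data. No paired analysis was possible because there is 1 group.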
